A study of Mus musculus with 6 samples.

Results

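The miRNAs described are 7 mature miRNA names of the erythroid set: mmu-miR-451a, both arms of miR-144 (mmu-miR-144-5p and mmu-miR-144-3p), and both arms of miR-486a and miR-486b (mmu-miR-486a-5p, mmu-miR-486b-5p, mmu-miR-486a-3p and mmu-miR-486b-3p). The prefix mmu, for mouse, is left out in most places below. They were chosen by name out of 707 names in the deposited table of counts. The rows of miR-486a-5p and miR-486b-5p hold identical counts, as do those of miR-486a-3p and miR-486b-3p, so the 7 names stand for 5 distinct measurements. The label erythroid rests on what these miRNAs are known for and was not a measurement in these samples. Small RNA was sequenced from exosomes, vesicles that cells release, collected from culture supernatants of bone marrow-derived macrophages. The groups were 3 wild-type (WT) libraries and 3 libraries of the Roquin-1 san:san genotype, all of the C57BL/6 strain. San is the sanroque allele of the gene for Roquin-1, which binds stem-loops of messenger RNAs and marks those RNAs for decay. Age, sex and culture treatment are not given in the labels, and nothing there tells if the replicates were separate mice or cultures. The p-values therefore measure the spread between these libraries, which may be technical.

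miR-144 and miR-451a are made from a common primary transcript that the erythroid factor GATA1 switches on, and miR-451a is among the most abundant miRNAs of red blood cells. miR-451a is unusual in that its precursor is too short for Dicer and is cut by Argonaute 2 instead. miR-486-5p also accumulates in maturing red cells and is found in muscle, where its host gene Ank1, which encodes an ankyrin, is active too. Because red cells release these miRNAs, miR-451a and miR-486-5p are familiar constituents of plasma and serum vesicles.

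The sequences of 3 of the 7 names were found in the RefSeq table (GRCm38.p6), namely miR-451a and both miR-144 arms. They are shown because the levels of these products of neighbouring hairpins are compared with each other below. The seed, bases 2 to 8 from the 5′ end, is in capitals.
miR-451a: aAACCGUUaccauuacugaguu
miR-144-5p: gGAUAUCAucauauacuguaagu
miR-144-3p: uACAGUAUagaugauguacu
The 3 seeds differ from each other. Among the 573 names of the count table that matched a RefSeq mature sequence, no other had the seed of miR-451a or of either miR-144 arm. miR-101a-3p shares bases 2 to 7 with miR-144-3p.
miR-101a-3p: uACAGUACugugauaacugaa
Its capitals again mark bases 2 to 8.

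In the hairpins, the capitals mark the mature miRNAs and show where each lies. Mir144 is at chr11:78073005-78073070 on the plus strand and Mir451a at chr11:78073170-78073241, also on the plus strand, both in GRCm38.p6.
Mir144: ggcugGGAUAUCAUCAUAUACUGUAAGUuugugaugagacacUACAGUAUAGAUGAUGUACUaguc
Mir451a: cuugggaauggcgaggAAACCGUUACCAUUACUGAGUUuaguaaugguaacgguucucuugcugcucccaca
The Mir144 hairpin has 66 bases, with the 5p arm at bases 6 to 28 and the 3p arm at bases 43 to 62. The Mir451a hairpin has 72 bases, and its mature miRNA, at bases 17 to 38, runs from the 5′ side through the loop. A gap of 99 bases separates the hairpins. No other gene of GENCODE M21 overlaps either hairpin apart from Mir451b, on the opposite strand of Mir451a. Mir486 lies on chromosome 8 within Ank1, on the same strand. It was intronic in 15 of 15 annotated Ank1 transcripts that span it, with Mir3107, the gene of miR-486b in RefSeq, on the opposite strand.

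The WT libraries held between 12447 and 28884 counts and the san:san libraries between 126098 and 185901, so that every san:san library was deeper than every WT library. On the scale of CPM, counts scaled to a total of 1000000 with TMM factors, a count was worth 28.1 to 70.4 in the WT libraries and 6.38 to 10.4 in the san:san libraries. Of the 707 names, 254 passed the filter on low counts, 5 of the 7 names here among them. These 5 are 4 distinct measurements: miR-486-5p, miR-451a, miR-144-5p and miR-144-3p. The 3p arm of miR-486 was too low to test. These are relative counts, so fewer vesicles carrying a miRNA and less of it per vesicle cannot be told apart.

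The erythroid miRNAs took up a larger part of the san:san exosome libraries than of the WT libraries, and miR-486-5p and miR-451a had the largest part in this. With the repeated miR-486 rows taken once, the 5 measurements together held 2.71%, 4.11% and 4.67% of all counts in WT replicates 1, 2 and 3. They held 10.9%, 11.0% and 12.7% in san:san replicates 1, 2 and 3. The groups did not overlap, with means of 3.83% ± 1.01 and 11.5% ± 0.999 (SD, n = 3 per genotype; two-sided exact permutation p = 0.1, below which 3 against 3 cannot go). Of the 4 tested measurements, 3 were higher in san:san and 0 lower by the quasi-likelihood test of edgeR (adjusted p below 0.05). Over all 254 tested miRNAs, 64.2% were called, 34.6% as higher and 29.5% as lower. In shares of the unscaled library total, the same 3 were higher in every san:san library than in any WT library, which held for 22.4% of all tested miRNAs, while 42.1% were lower in every san:san library than in any WT library.

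mmu-miR-486a-5p, written miR-486-5p from here on, targets regulators of growth signalling and rises as red cells mature. It had 145, 465 and 362 counts in WT replicates 1 to 3 and 9848, 8803 and 7532 in the san:san libraries. In CPM these were 10203, 13057 and 13267 in the WT libraries and 62836, 67013 and 78064 in the san:san libraries. All 3 san:san libraries lay far above the WT libraries, and the spread within each genotype was small beside the distance between them. The level rose 5.67-fold, by 2.50 ± 0.21 on the log2 scale (SE; edgeR adjusted p = 2.25e-07). In rank by counts, miR-486-5p was at 19, 16 and 15 in the WT libraries and at 4, 3 and 3 in the san:san libraries. The counts do not tell whether the reads came from miR-486a or miR-486b, since both rows are identical.

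mmu-miR-451a, a red-cell miRNA needed for normal erythroid maturation under stress, had 141, 492 and 454 counts in the WT libraries and 7290, 6310 and 6179 in the san:san libraries. In CPM these were 9921, 13816 and 16638 in the WT libraries and 46514, 48035 and 64041 in the san:san libraries. The genotypes did not overlap, and WT replicate 1, the shallowest library, was the lowest of the 6. miR-451a rose 3.91-fold, by 1.97 ± 0.24 on the log2 scale (SE; edgeR adjusted p = 8.21e-06). Its rank by counts was 21, 14 and 12 in the WT libraries and 8, 8 and 5 in the san:san libraries.

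mmu-miR-144-5p, the arm from the 5′ side of the Mir144 hairpin, had 46, 179 and 160 counts in the WT libraries and 1923, 1502 and 1205 in the san:san libraries. In CPM these were 3237, 5026 and 5864 in the WT libraries and 12270, 11434 and 12489 in the san:san libraries. The san:san libraries were close to each other and all above WT. The rise was 2.52-fold, or 1.33 ± 0.22 on the log2 scale (SE; edgeR adjusted p = 1.49e-04). With unscaled library totals the folds of the 3 raised miRNAs were smaller by more than 1.5 times, at log2 1.90 for miR-486-5p, 1.35 for miR-451a and 0.73 for miR-144-5p (edgeR adjusted p = 0.0156 for the last), and all 3 still passed.

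mmu-miR-144-3p, the arm with the established targets in erythroid cells, such as the antioxidant regulator Nrf2, did not pass the test. It had 1, 28 and 22 counts in the WT libraries and 153, 98 and 130 in the san:san libraries. In CPM these were 70.4, 786 and 806 in the WT libraries and 976, 746 and 1347 in the san:san libraries. San:san replicate 2 lay below WT replicates 2 and 3, so the genotypes overlapped, while WT replicate 1 stood apart with a single count. The estimate was 0.67 ± 0.40 on the log2 scale (SE; edgeR adjusted p = 0.158), and 0.25 (adjusted p = 0.455) without WT replicate 1. With unscaled totals it was 0.05 (adjusted p = 0.930). The call depended on the count filter, since miR-144-3p passed when no filter was applied (log2 0.80, adjusted p = 0.0388).

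**Figure D1:**
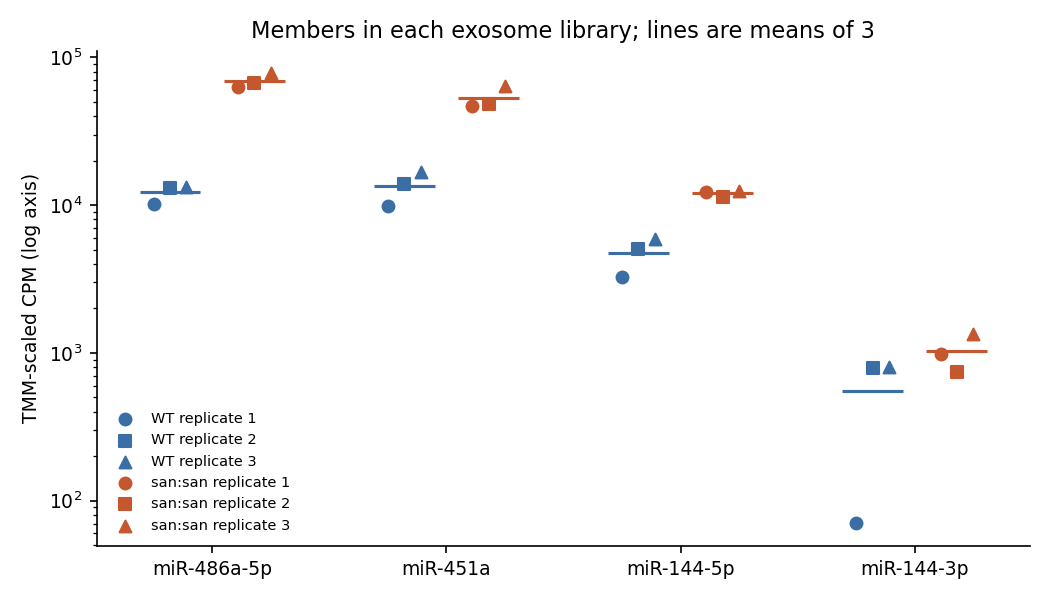
TMM-scaled CPM (log axis) of miR-486a-5p, miR-451a, miR-144-5p and miR-144-3p in each library, with the replicate number as marker shape, the genotype as colour and the mean of 3 libraries as a line. All san:san points lie above all WT points for miR-486a-5p, miR-451a and miR-144-5p, while the miR-144-3p points overlap and WT replicate 1 has 1 count.

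miR-486-3p, the partner arm of miR-486-5p, was at 5 counts in WT replicate 2 and 0 in the other 5 libraries. In WT replicate 2 it made up 1.06% of the miR-486 counts (95% exact binomial interval 0.346 to 2.47%). Over the san:san libraries, 0 of 26183 miR-486 counts were of the 3p arm, which allows a share of up to 0.0115%. The share in that WT library was thus above what the san:san libraries allow, but WT replicates 1 and 3, with 0 of 145 and 0 of 362 counts, allow up to 2.07% and 0.829%. The limit of WT replicate 3 was below the share in WT replicate 2 but inside its interval. These counts therefore do not show a difference among the WT libraries. The log2 ratio of the 3p to the 5p arm differed by -6.05 with a pseudocount of 0.5 (exact permutation p = 0.1), a value that in 5 of the 6 libraries only follows the count of the 5p arm. Counting intervals and limits of this kind cover counting error only.

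Ratios of counts within a library do not depend on how the libraries are scaled, and some of them differed between the genotypes without overlap. miR-486-5p over miR-451a was 1.03, 0.945 and 0.797 in WT replicates 1 to 3 and 1.35, 1.40 and 1.22 in san:san. miR-451a was the more abundant in WT replicates 2 and 3, miR-486-5p in every san:san library, and in WT replicate 1 they differed by 4 counts. The ratio was 1.44-fold higher in san:san, a log2 difference of 0.52 between means of -0.12 ± 0.19 and 0.40 ± 0.10 (SD, n = 3; exact permutation p = 0.1, adjusted p = 0.15 over 6 ratios). In all 6 libraries miR-144-5p was below both of these and miR-144-3p was the lowest of the 4.

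Within the cluster, miR-144-5p over miR-451a was 0.326, 0.364 and 0.352 in the WT libraries and 0.264, 0.238 and 0.195 in the san:san libraries. These neighbours on chromosome 11 therefore kept a narrow ratio in WT and a lower one in every san:san library. The ratio was 1.51-fold lower in san:san, with log2 means of -1.52 ± 0.08 and -2.12 ± 0.22 (SD, n = 3; exact permutation p = 0.1, adjusted p = 0.15). miR-451a made up 75.0%, 70.4% and 71.4% of the counts of the 3 cluster products in WT and 77.8%, 79.8% and 82.2% in san:san. The 95% exact interval of WT replicate 1, 68.2 to 81.0%, took in the values of san:san replicates 1 and 2, whereas those of WT replicates 2 and 3 ended at 73.8% and 74.9%.

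miR-144-3p over miR-451a was 0.00709, 0.0569 and 0.0485 in the WT libraries and 0.0210, 0.0155 and 0.0210 in the san:san libraries. San:san values lay below WT replicates 2 and 3 and above WT replicate 1 (log2 difference -0.71, exact permutation p = 0.4). Without WT replicate 1 the log2 difference was -1.49.

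The 5p arm outnumbered the 3p arm of miR-144 in every library. The 3p arm made up 2.13%, 13.5% and 12.1% of miR-144 counts in WT replicates 1 to 3 and 7.37%, 6.13% and 9.74% in san:san. WT replicates 2 and 3 were the highest and WT replicate 1 the lowest of the 6, but with 1 of 47 counts its 95% exact interval was 0.0539 to 11.3%. The interval of WT replicate 3, 7.73 to 17.7%, overlapped that of san:san replicate 3, 8.20 to 11.5%. The log2 ratio of the arms differed by 0.11 between the genotypes (exact permutation p = 1), and its sign depended on which library was left out.

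**Figure D2:**
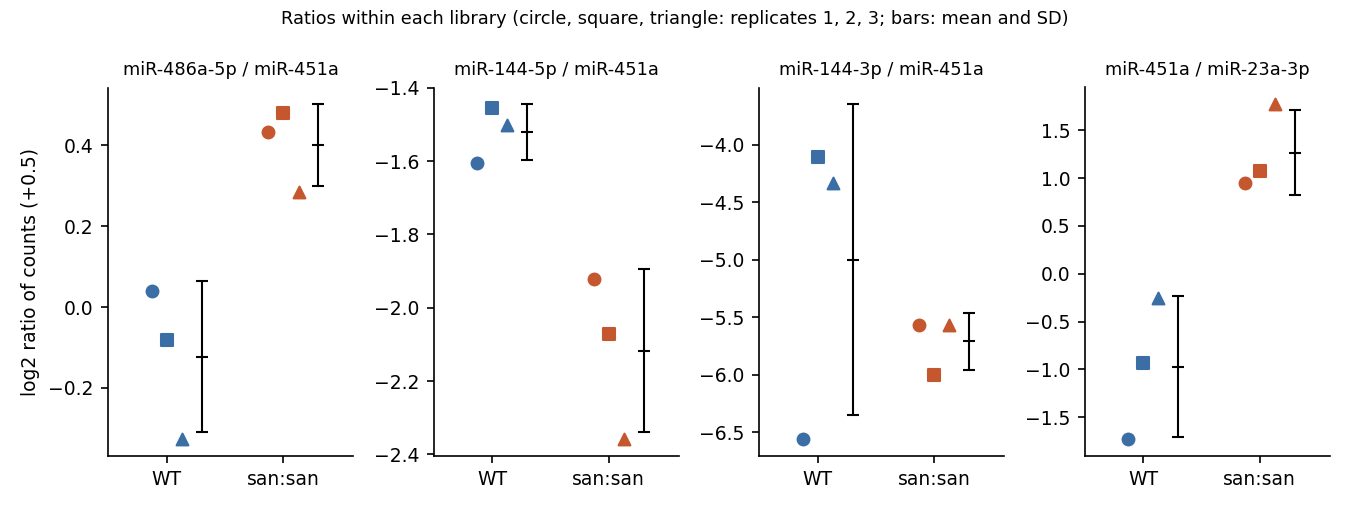
Log2 ratios of counts (each plus 0.5) in the same library for 4 pairs, by genotype, with marker shape for the replicate number and a bar for the mean and SD of 3 libraries. The genotypes do not overlap for miR-486a-5p over miR-451a (higher in san:san), miR-144-5p over miR-451a (lower) or miR-451a over miR-23a-3p (higher), and overlap for miR-144-3p over miR-451a.

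In plasma work, the ratio of miR-451a to miR-23a-3p is used as an index of red-cell content, because miR-23a-3p is rare in red cells. It was 0.301, 0.523 and 0.841 in the WT libraries and 1.93, 2.11 and 3.42 in the san:san libraries. The ratio was thus below 1 in every WT library and above it in every san:san library, with a 4.71-fold difference (log2 2.23, from -0.97 ± 0.74 to 1.26 ± 0.44, SD, n = 3; exact permutation p = 0.1, adjusted p = 0.15). These are sequencing counts of culture exosomes, not of plasma, and 1 is not a cut-off for red-cell content. miR-23a-3p was itself abundant here, with a mean of 24134 CPM over the 6 libraries. For miR-486-5p over miR-23a-3p, a ratio added after the data were seen, the values were 0.310, 0.495 and 0.670 in the WT libraries and 2.60, 2.94 and 4.17 in the san:san libraries.

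Other miRNAs that red cells hold in quantity were listed to set beside the members, although many other cells express them too. Of 11 such miRNAs, 10 were named in the table and 8 tested. Of these, 4 were higher and 0 lower in san:san, where 34.6% of all 254 tested miRNAs were higher and 29.5% lower. The median log2 change of the list was 0.77, against 0.30 for all 254 tested. With unscaled totals 2 were higher, miR-25-3p and miR-93-5p, and 1 lower, miR-107-3p, where 19.3% of all tested miRNAs were higher and 39.8% lower. The list includes miR-16-5p, a repressor of cell-cycle genes, with 25, 74 and 62 counts in the WT libraries and 597, 431 and 393 in the san:san libraries, which rose by a log2 change of 0.85 ± 0.20 (edgeR adjusted p = 0.00231) and did not pass with unscaled totals (0.24, adjusted p = 0.344). miR-93-5p, with 121, 648 and 659 counts in the WT libraries and 7688, 6615 and 5695 in the san:san libraries, rose by 1.63 ± 0.30 (2.86e-04). The far less abundant miR-363-3p summed to 3 counts in WT and 78 in san:san and rose by 2.37 ± 0.81 (0.0199), a call also lost with unscaled totals (1.77, adjusted p = 0.0841). It met the filter on low counts only through the san:san libraries and is among the 4 counted as higher. miR-25-3p was the other raised member. miR-107-3p (log2 -0.17 ± 0.23, adjusted p = 0.525, and -0.77, adjusted p = 0.0114, with unscaled totals) and miR-185-5p (0.16 ± 0.20, 0.482) did not pass, nor did miR-92a-3p and miR-210-3p, and miR-182-5p summed to 6 counts in WT and 0 in san:san.

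Set against miR-16-5p and miR-25-3p, miR-486-5p and miR-451a were higher in every san:san library than in any WT library. miR-486-5p over miR-16-5p had a geometric mean of 5.91 in WT and 18.6 in san:san, 3.15-fold higher, and miR-451a over miR-16-5p went from 6.44 to 14.1, 2.19-fold higher. Against miR-25-3p, of the miR-106b-25 cluster, the ratios were 2.78-fold higher for miR-486-5p and 1.94-fold higher for miR-451a. None of these 4 ratios overlapped between genotypes (exact permutation p = 0.1 each, adjusted p = 0.171 over 12 ratios). Ratios to miR-93-5p, added after the data were seen, were closer. miR-486-5p over miR-93-5p was 1.198, 0.718 and 0.549 in the WT libraries and 1.28, 1.33 and 1.32 in the san:san libraries, without overlap but with WT replicate 1 near san:san. miR-451a over miR-93-5p was 1.17, 0.759 and 0.689 in WT and 0.948, 0.954 and 1.08 in san:san. Here the genotypes overlapped.

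**Figure D3:**
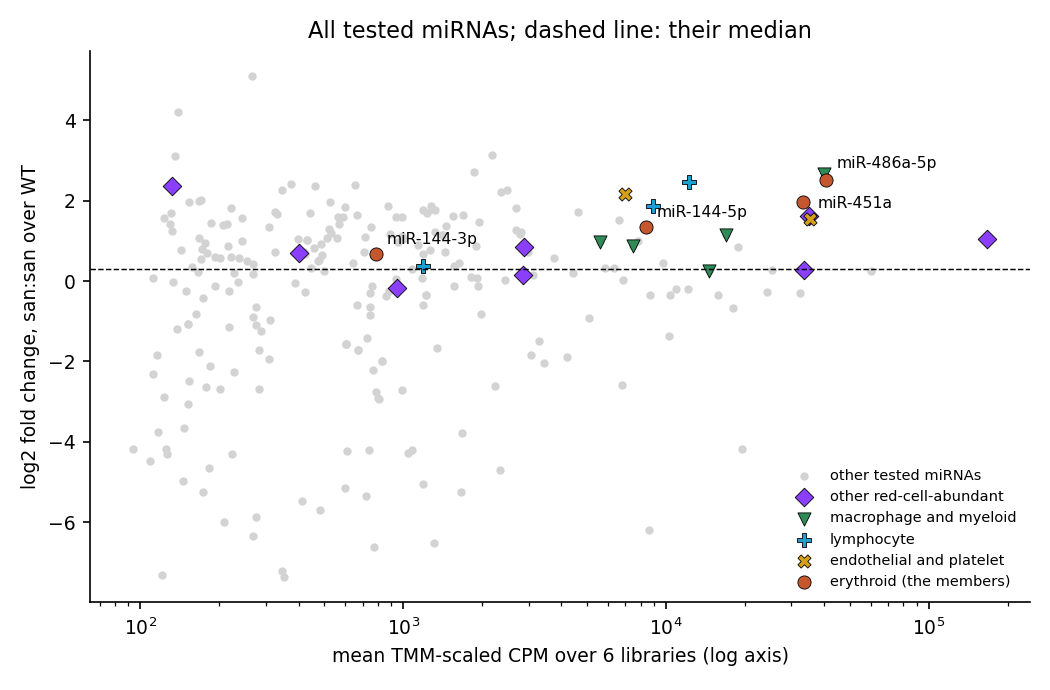
Log2 fold change (san:san over WT) against mean TMM-scaled CPM over 6 libraries (log axis) for the 254 tested miRNAs, with the erythroid miRNAs and 4 other lists in colour and the median of all tested, 0.30, as a dashed line. miR-486a-5p and miR-451a lie among the abundant miRNAs with high fold changes, beside miRNAs of the myeloid, lymphocyte and endothelial lists.

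miRNAs of other blood and vascular cells moved with the genotype as well, on a background of 34.6% of all tested miRNAs called higher. On the lymphocyte list 2 of 3 tested were higher, miR-150-5p and miR-342-3p, and the list held 0.929 to 1.26% of counts in WT and 2.71 to 3.38% in san:san. Both endothelial and platelet miRNAs were higher, miR-126a-3p and miR-126a-5p, with shares of 1.85 to 3.73% and 3.58 to 7.35%. On the macrophage and myeloid list 4 of 5 tested were higher, with shares of 4.90 to 5.69% and 9.72 to 11.6%. Of the raised 4, miR-223-3p, which is abundant in myeloid cells, and the widely expressed miR-21a-5p had counts in all 6 libraries. miR-155-5p, with 1 to 7 counts in WT and 3 to 15 in san:san, was too low to test. The tested miR-146a-5p of this list did not pass (log2 0.26, edgeR adjusted p = 0.363). Neither did miR-181a-5p of the lymphocyte list (log2 0.38, edgeR adjusted p = 0.281). On the liver and gut list 3 of 4 were higher, with shares that overlapped (0.594 to 0.799% and 0.598 to 0.819%). Those 3 were miR-122-3p, miR-194-5p (log2 1.59) and miR-192-5p (1.09). The first of them passed (edgeR adjusted p = 0.00275) on very few WT counts, 1, 1 and 0, while san:san replicates 1 to 3 had 33, 32 and 25. It met the filter on low counts only through the san:san libraries. The most abundant name of the list, miR-122-5p, was not called (log2 0.33, adjusted p = 0.186). With unscaled totals, where 19.3% of all tested were called higher, the numbers in the order of these lists were 2 of 3, 2 of 2, 2 of 5 and 1 of 4. The 1 name left on the liver and gut list was miR-122-3p. The part of such cells in the erythroid values was not tested.

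The erythroid pair was set against 1 miRNA of each of these lists, miR-150-5p, miR-142a-3p, miR-126a-3p and miR-122-5p. miR-486-5p over miR-150-5p had a geometric mean of 3.19 in WT and 3.35 in san:san, and miR-486-5p over miR-142a-3p, which most blood cells express, 1.21 and 1.03. Both overlapped between the genotypes (exact permutation p = 0.8 and 0.5), as did the ratios of miR-486-5p and miR-451a to miR-126a-3p and of miR-451a to miR-150-5p. The log2 difference for miR-150-5p was 0.07 with an SD of 0.35 in WT and 0.34 in san:san, so a difference of that order would not have been seen. miR-451a over miR-142a-3p was lower in every san:san library, with 1.31 in WT and 0.778 in san:san (exact permutation p = 0.1). miR-122-5p, the main miRNA of liver and a regular constituent of plasma, gave ratios that differed: miR-486-5p over miR-122-5p was 4.55-fold higher in san:san and miR-451a over miR-122-5p 3.17-fold higher, without overlap (exact permutation p = 0.1, adjusted p = 0.171 each). Other miRNAs of the same lists did not always give the same picture. miR-486-5p over miR-342-3p, also a lymphocyte miRNA, was 2.04, 3.88 and 4.02 in WT and 4.50, 4.75 and 5.63 in san:san. Over miR-142a-5p, the partner arm of miR-142a-3p, it was 1.81, 4.27 and 4.41 in WT and 7.68, 9.44 and 11.6 in san:san. Neither overlapped between the genotypes. The ratios of miR-486-5p to miR-223-3p, miR-146a-5p and miR-21a-5p, also of the myeloid list, were 3.06-, 4.65- and 2.55-fold higher in san:san, without overlap. Of the 5 tested miRNAs of that list, only miR-142a-3p gave an overlap. With every tested miRNA of the red-cell list and these 4 lists as denominator in turn, miR-486-5p was higher in every san:san library than in any WT library for 15 of 22 ratios and overlapped in 7. For miR-451a 12 of 22 were higher without overlap, 1 was lower and 9 overlapped. The same count with all tested miRNAs as denominators was not made. The denominators include miR-363-3p, with 1, 0 and 2 counts in WT replicates 1 to 3, and miR-122-3p, with 1, 1 and 0. Both met the filter on low counts only through the san:san libraries. Ratios to either overlapped for both members, but in WT they depended on the pseudocount. By log2 change miR-486-5p ranked 7 and miR-451a 21 among the 254 tested, so a rise over most denominators follows from these ranks. The ratios beyond the first 12 were added after the data were seen.

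Likeness of pattern was measured as the SD, over the 6 libraries, of the log2 ratio to a member, among 93 other miRNAs with at least 10 counts in every library. These values describe 6 libraries that differ in genotype and depth together. For miR-486-5p the smallest SDs were those of miR-409-3p (0.26), miR-150-5p (0.31), miR-142a-3p (0.40), miR-106b-3p (0.42) and miR-574-3p (0.46), against a median of 1.37. miR-451a, with 0.32, came after 2 of these. For miR-451a they were miR-574-3p (0.27), miR-93-5p (0.29), miR-19b-3p (0.30), miR-106b-3p (0.33) and miR-409-3p (0.33), against a median of 1.14. Its cluster mate miR-144-5p, at 0.36, came after 5 of the 93, and miR-144-3p, at 0.95, after 35. With 1 count in WT replicate 1, miR-144-3p did not itself meet the limit of 10 counts. The miRNA with the steadiest ratio to miR-451a was thus not its cluster mate.

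miR-101a-3p, which shares bases 2 to 7 with miR-144-3p, had 6, 15 and 9 counts in the WT libraries and 85, 55 and 71 in the san:san libraries. It did not pass the test (log2 0.52, edgeR adjusted p = 0.179), as miR-144-3p did not.

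Depth differed with the genotype, and the 3 calls were made again in libraries thinned to the smallest total, 12447 counts. In all 20 draws miR-486-5p, miR-451a and miR-144-5p were called higher, with median log2 changes of 2.18, 1.64 and 1.00. miR-144-3p ranged from -0.30 to 1.28 and was called in 2 draws. The scaling of the libraries moved the median log2 change of all tested miRNAs from 0.30 to 0.04 with RLE factors and to -0.30 with unscaled totals. Over 17 alternative fits, those with a library left out included, miR-486-5p lay between 2.11 and 2.38 above the median of all tested, miR-451a between 1.51 and 1.84 and miR-144-5p between 0.87 and 1.21. A change of scaling shifts all log2 changes nearly alike, so this distance could hardly move with it. For miR-486-5p it was 2.21 with TMM, 2.20 with RLE factors and 2.20 with unscaled totals. The median was that of the miRNAs tested in each fit.

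**Figure D4:**
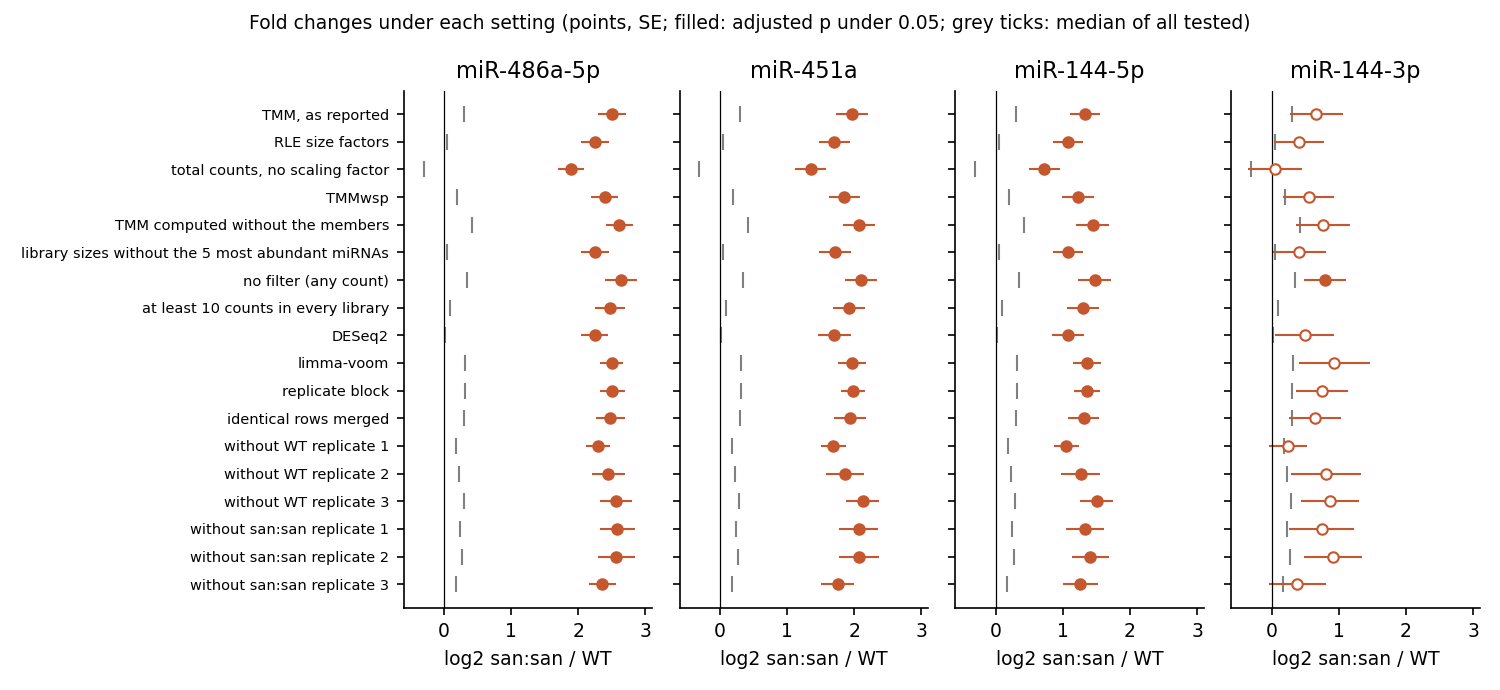
Log2 fold change (san:san over WT) with its SE for 4 erythroid miRNAs under TMM scaling and each alternative, filled where the adjusted p is under 0.05, with the median of all tested miRNAs as a grey tick. miR-486a-5p, miR-451a and miR-144-5p are filled in every row, and miR-144-3p is filled only where no filter on low counts was applied and has no value where 10 counts were required in every library.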

How the data were processed

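For the 6 libraries the authors deposited counts, whole numbers for each mature miRNA name. The submitters' processing notes name genome build mm9. How reads were trimmed and aligned, which miRNA annotation was used and how reads that match several names were treated is not given in the sources used here. Scaled values that the authors gave for each sample come from the same reads and were not used. Libraries were made by standard Illumina miRNA procedures, per the labels' protocols, which also name an mRNA kit. Groups and replicate numbers were taken from sample titles. No column came from outside the series (0 columns).

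Genotype was tested over all 6 libraries with glmQLFit and glmQLFTest of edgeR 4.0.16 (R 4.3.3), after filterByExpr at a minimum count of 10 and with TMM factors and total counts of the tested miRNAs, robust dispersions and no further term. Adjustment was by Benjamini-Hochberg over 254 miRNAs. The SE of an edgeR log2 change was derived as its absolute value over the square root of the F statistic of the test. Ratios used counts plus 0.5, and tests over samples were two-sided exact permutations. The procedures were tested on simulated data. Alternatives used limma 3.58.1 and DESeq2 1.42.0. The miRNAs named are the members, the cell type lists, the 5 miRNAs most like miR-486-5p or miR-451a, and seed mates. Members and lists were chosen with earlier results of these data known.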

Additional observations from a re-analysis of the deposited data

How the results depend on the processing

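The calls of miR-486-5p, miR-451a and miR-144-5p as higher held under every alternative run: RLE factors, unscaled totals, TMMwsp, TMM without the members, library sizes less the 5 top miRNAs, no filter, 10 counts in every library, DESeq2, limma-voom, merged identical rows, thinned libraries and each library left out. With no filter, miR-144-3p passed (log2 0.80, edgeR adjusted p = 0.0388) and miR-486a-3p was called lower on its 5 counts. In all, 163 miRNAs were called, 66 with 10 counts required in every library and 83.5 (median) in thinned libraries, where fewer could be tested.

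The log2 difference of miR-144-5p over miR-144-3p turned to -0.060 once the pseudocount was made proportional to depth, and ranged from -0.30 to 0.85 with a library left out. Ratios that changed sign with a library left out were miR-486-5p over miR-142a-3p (-0.53 to 0.0054), over miR-150-5p (-0.12 to 0.22) and over miR-126a-3p (-0.15 to 0.77), and miR-451a over miR-126a-3p (-0.76 to 0.22). The other ratios kept their direction, apart from those added after the data were seen, which were not run under alternatives.

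Pairing of the libraries by replicate number was not shown. The deviations of same-numbered libraries correlated at 0.09, -0.06 and 0.24, the last being the highest of all pairs. Those of other pairs ran from -0.19 to 0.14. Deviations from means of 3 libraries cannot exclude a pairing. With the replicate block, 161 miRNAs were called and the members' calls did not change (miR-486-5p log2 2.51, miR-144-3p adjusted p = 0.0927). Not every library correlated best with its own number.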
